A study of Mus musculus with 13 samples.

Results

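The 43 genes described here encode the proteins that license replication origins, unwind DNA and copy it, and they were followed in mouse embryonic stem cell (ESC) lines before and after deletion of histone demethylase genes of the Jmjd2 (Kdm4) family. The genes were taken as a list of named symbols, with earlier results of these data known. Each was represented by its brightest probe, and all 43 of 43 were found among the 22965 features tested, 14659 of which carried a gene symbol. All 43 lay well above background on each of the 13 arrays. They were ordered by role into licensing (9 genes), helicase (12), polymerases with primase and the single-strand binding protein RPA (12), clamp, clamp loader and lagging-strand processing (8) and ribonucleotide reductase (2).

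RNA was measured on 1-colour Agilent arrays in 6 ESC lines derived from C57Bl/6 mice, and every line carried the tamoxifen-inducible recombinase CreERT2 at the Rosa26 locus. Lines cl4, cl5 and cl6 (2ac) had floxed Jmjd2a and Jmjd2c, and the 2abc lines, named cl280.4, cl324.9 and, from the same number, cl324.13, had floxed Jmjd2a, Jmjd2b and Jmjd2c. Control cultures received no OHT, the active metabolite of tamoxifen, while OHT cultures received 500 nM for 12 days and were harvested 6 days after its removal. All cultures grew on gelatin in serum-free N2B27 with LIF and with inhibitors of MEK and GSK3. This gave 4 groups of 3 samples, with the OHT sample of cl4 hybridised on 2 arrays that were averaged. No line without floxed alleles was analysed here, so deletion, OHT exposure and Cre activity cannot be told apart. The labels call the lines of each genotype independent. In the main fit, p-values of the OHT effects measure the spread of within-line changes, pooled over the lines of both genotypes. Those of the untreated comparison measure the spread among control cultures. 

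Replication starts when the origin recognition complex (ORC), together with Cdc6 and Cdt1, loads the MCM helicase onto DNA in G1, a step that geminin blocks later in the cycle. Cdc45 and the GINS complex then turn the loaded MCM ring into an active helicase, and polymerases alpha, delta and epsilon copy the strands behind it with the help of the sliding clamp PCNA and its loader RFC. Many of these genes are transcribed towards S phase by E2F factors, and mouse ESCs are known for a short G1 and high levels of the licensing proteins.

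The targeted genes and the cell type were checked first. Kdm4c (Jmjd2c) kept 13.4% of its control signal in 2ac and 10.8% in 2abc, Kdm4a (Jmjd2a) kept 59.8% and 62.8%, and Kdm4b (Jmjd2b) kept 21.4% in 2abc and measured 109.0% in 2ac, where it was not floxed. The position of these probes in relation to the floxed exons was not used here. All 10 ESC markers examined were above background on every array. Between 50.1 and 63.9% of probes were well above background on an array and 0 were saturated.

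Over the 6 lines, 21 of the 43 replication genes were lower after OHT and 1, Orc4, was higher (limma, Benjamini-Hochberg adjusted p under 0.05 over all features). Across all 22965 features the lower calls made up 14.7% and the higher calls 14.0%, and the lower calls made up 48.8% of the replication genes. Among the 2554 features at least as bright as the median of the 43 genes (the bright features), 13.3% were called lower. Changes were negative in 1790 of these bright features, with a median of -0.06. The median change of the 43 genes was -0.22 on the log2 scale, while the median of all features was 0.00, and 34 of the 43 changes were negative. In 24 genes (55.8%) the OHT culture was below its control in every one of the 6 lines. This pattern was seen in 16.1% of all features and in 24.5% of the bright features. In 2 genes the OHT culture was above its control in every line, which 14.4% of all features and 222 of the 2554 bright features showed. Median changes of the 43 genes by line were -0.15 (cl4), -0.13 (cl5), -0.12 (cl6), -0.24 (cl280.4), -0.30 (cl324.9) and -0.20 (cl324.13), so all 6 lines lay on the same side, and the medians of all features in those lines were between -0.09 and 0.08. The largest of the lower changes, in Orc1, left 59.4% of the control level, and the other 20 lower genes kept between 69.9 and 85.6%.

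**Figure D1:**
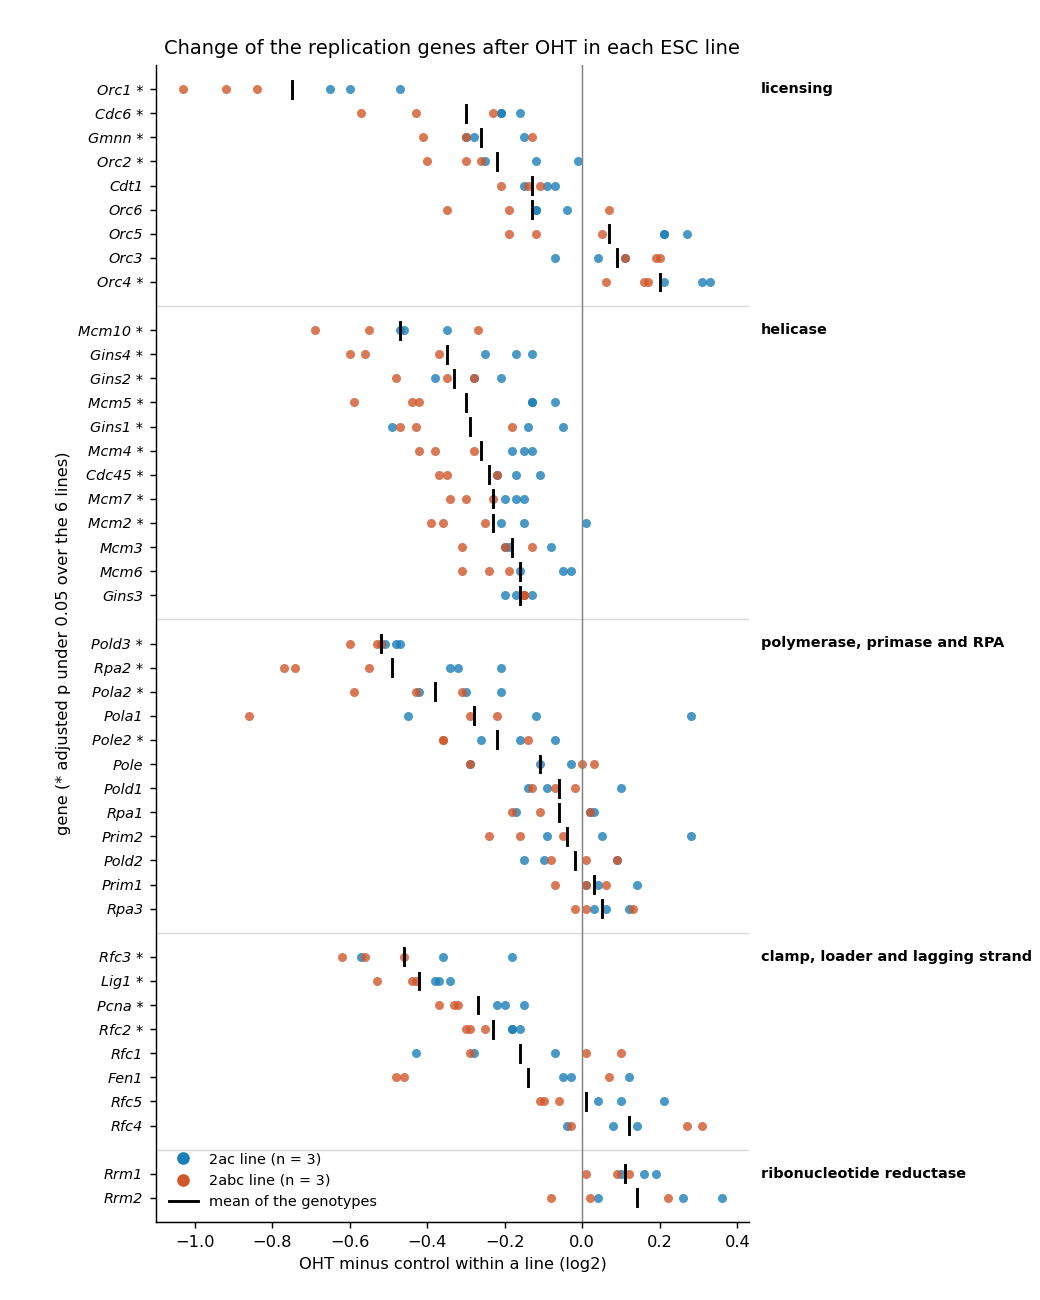
Change of each of the 43 replication genes after OHT, as OHT minus control within a line in log2 units (horizontal axis), with genes in rows grouped by role; blue points are the 3 lines of 2ac, orange points the 3 lines of 2abc and black bars the mean of the genotypes. Stars mark the 22 genes called over the 6 lines; helicase genes lie left of 0 almost throughout, from -0.16 to -0.47, and both ribonucleotide reductase genes lie right of it.

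Within genotypes the calls were fewer in 2ac. There 4 genes were called lower (Orc1, Mcm10, Pold3 and Lig1) and 0 higher, 9.30% of the 43 against 6.52% of all features lower and 5.75% higher, a share near the background. The median of the 43 genes in 2ac was -0.14, with 32 of 43 negative, against 0.02 over all features. In 2abc 18 were called lower and 0 higher, 41.9% against a background of 9.03% lower and 8.57% higher, and the median was -0.28 against -0.02. The 4 genes called in 2ac were also called in 2abc. OHT and control samples did not overlap, with OHT lower, for 18 genes in 2ac (15.4% of all features) and for 25 in 2abc (22.0% of all features). Of the 2554 bright features, 334 in 2ac and 1025 in 2abc showed this. Medians of the bright features were -0.03 in 2ac and -0.10 in 2abc, and 3.56% and 9.01% of them were called lower.

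**Figure D2:**
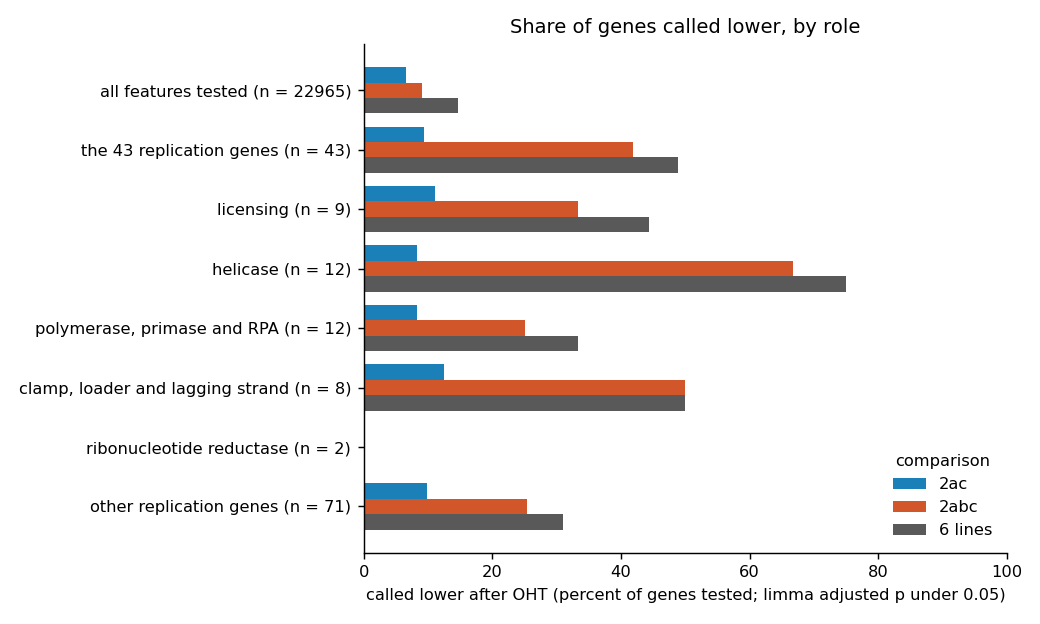
Percent of genes called lower after OHT (horizontal axis, limma adjusted p under 0.05) in 2ac (blue), in 2abc (orange) and over the 6 lines (grey), for all features, the 43 replication genes, their role groups and 71 other replication genes. The helicase genes reach 75% over the 6 lines, all features 14.7% and the ribonucleotide reductase genes 0%.

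Calls of 9 genes over the 6 lines were kept under all 16 alternative settings: Orc1, Mcm10, Gins2, Gins4, Pola2, Pold3, Rpa2, Rfc3 and Lig1. The other 13 calls (Orc2, Orc4, Cdc6, Gmnn, Mcm2, Mcm4, Mcm5, Mcm7, Cdc45, Gins1, Pole2, Pcna and Rfc2) were lost in at least 1 setting, always with the same sign. All 13 were lost without line cl324.13, which left 9 genes called lower. Without cl324.9 or without cl5 10 were called lower, without cl4 11, without cl280.4 18 and without cl6 20. Over all features these fits called between 7.93% (without cl324.13) and 15.1% (without cl280.4) lower, against 14.7% with every line. In 2abc the count fell from 18 to 1, Orc1, without cl324.9 or without cl324.13, to 7 without cl4 or cl5 and to 12 without cl280.4. Lower calls over all features in 2abc fell as well, from 9.03% to 0.449% without cl324.9 and 0.392% without cl324.13. They were 4.96% without cl4, 5.03% without cl5 and 10.7% without cl280.4. The 2ac count fell from 4 to 0 without cl4 or cl5, and to 2 (Orc1 and Pold3) without cl6, cl324.9 or cl324.13. Lower calls over all features in 2ac fell from 6.52% to 0.71% without cl4 and 0.287% without cl5. Without cl6, cl324.9 or cl324.13 they were 3.66 to 3.91%. With each array scaled to its median, 12 genes were called lower over the 6 lines, 5 in 2abc and 2 in 2ac, and with no filter on dim probes 11, 6 and 1. All features gave 11.8, 6.78 and 5.54% lower with median scaling, where the 2ac share of the 43 genes was 4.65%. With no filter all features gave 6.03, 2.0 and 1.26%. With each genotype fitted alone, Orc1 was the only call in 2abc and 2ac had 0. All features then gave 1.73% lower in 2abc and 4.02% in 2ac.

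**Figure D3:**
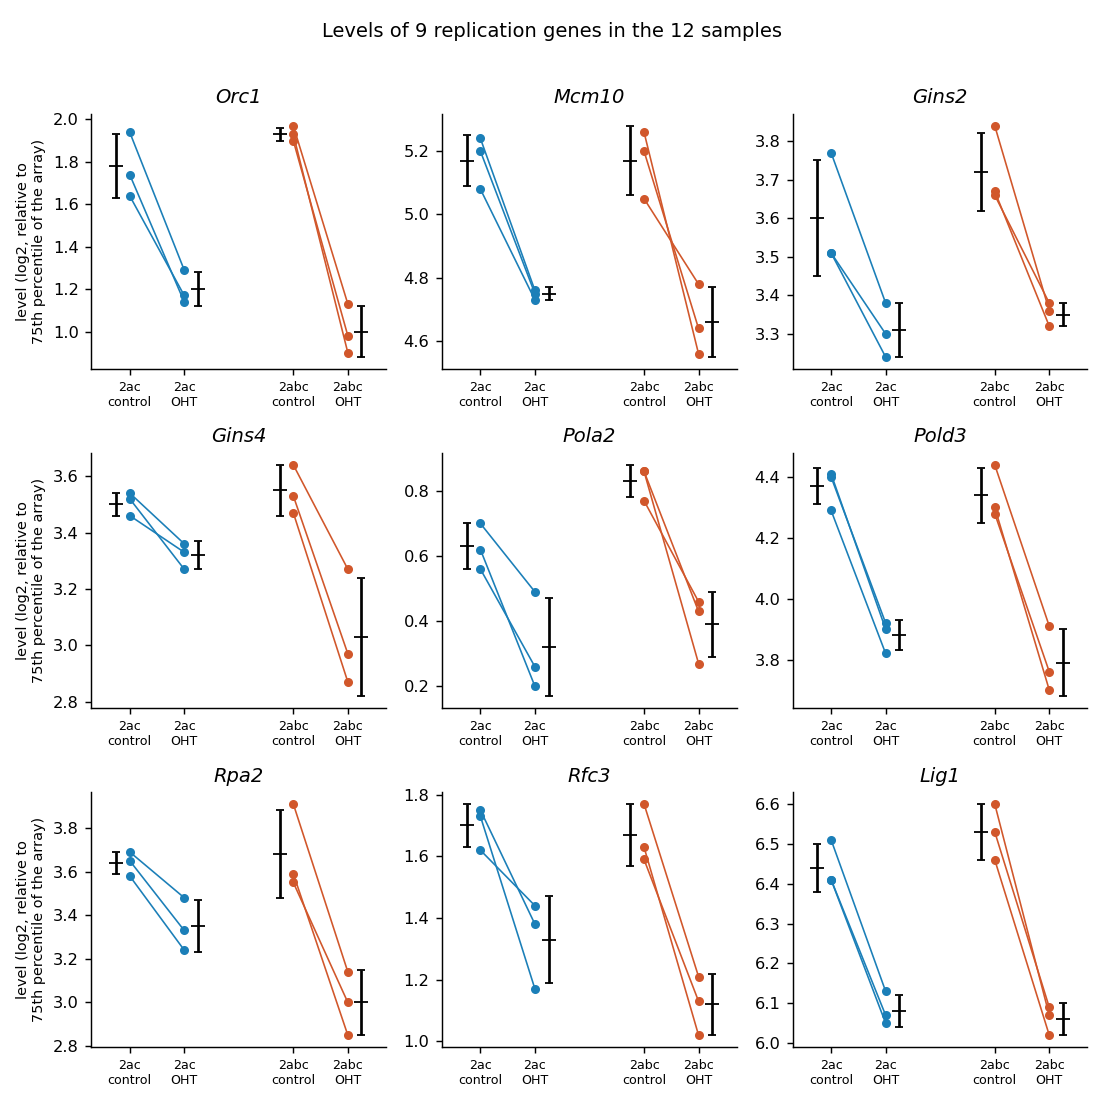
Levels of the 9 genes whose calls were kept in every alternative over the 6 lines, in log2 units above or below the array's 75th percentile (vertical axes, each with its own range); lines join the control and OHT cultures of an ESC line, and black marks give mean and SD (n = 3). In each panel every OHT point lies below its own control, and the OHT and control points of a genotype do not overlap.

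The upstream sequences of these genes were examined because the genes moved together. RefSeq promoter windows of build GRCm38.p6 were on hand for 35 of the 43 genes, and the 250 bases before the start were searched on both strands for 4 forms of the E2F site (TTTCCCGC, TTTGGCGC, TTTCGCGC and TTTGCCGC), for CCAAT and for TTTGAA, the letters of the CHR element. Windows were not on hand for Gmnn, Mcm4, Gins1, Gins2, Gins4, Prim2, Pole and Rfc2. All of these except Prim2 and Pole were called lower, so windows cover 15 of the 21 genes lower over the 6 lines. E2F letters were found in 9 of 35 genes (25.7%), against 2.16% of the 27025 genes of the table and 3.58% of the genes tested on the arrays. CCAAT was found in 65.7%, against 37.5% of the table and 40.3% of the genes tested on the arrays. TTTGAA was found in 14.3%, against 18.3% of the table and 13.3% of the genes tested. Of the 15 genes with a window that were called lower over the 6 lines, 5 held E2F letters (Cdc6, Mcm5, Mcm7, Orc1 and Rfc3), and of the other 20, 4 did (Gins3, Mcm6, Orc3 and Pola1). Those 4 were not called, but Gins3 and Mcm6 were lower in 6 of 6 lines and Pola1 in 5, against 1 for Orc3. The split is therefore by call and does not part lower from unchanged genes. A match is a run of letters and not a shown site of binding, which these arrays do not measure. The stretches below show the 5 lower genes with E2F letters and Mcm6, which has 3 matches. Mcm6 was not called (-0.16, limma adjusted p = 0.0658), though it was lower in 6 of 6 lines. Capitals mark the E2F letters, and neighbouring matches on opposite strands overlap in Mcm5 and Mcm6.
Orc1, chr4:108579394-108579453, plus strand: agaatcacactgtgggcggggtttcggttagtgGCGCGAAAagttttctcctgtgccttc
Cdc6, chr11:98907987-98908046, plus strand: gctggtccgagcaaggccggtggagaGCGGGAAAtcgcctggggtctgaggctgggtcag
Mcm5, chr8:75109330-75109389, plus strand: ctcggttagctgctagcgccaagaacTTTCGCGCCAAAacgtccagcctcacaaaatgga
Mcm7, chr5:138172015-138172074, minus strand: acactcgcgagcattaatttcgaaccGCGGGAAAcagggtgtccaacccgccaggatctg
Rfc3, chr5:151651209-151651268, minus strand: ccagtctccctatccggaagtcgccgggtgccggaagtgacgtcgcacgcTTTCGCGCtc
Mcm6, chr1:128359735-128359841, minus strand: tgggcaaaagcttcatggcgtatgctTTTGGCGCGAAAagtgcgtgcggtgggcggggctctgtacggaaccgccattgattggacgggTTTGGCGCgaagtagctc
In Rfc3 and Orc1 the letters lie 10 and 27 bases before the start, and in Mcm7 they lie 165 bases before it. Mcm10, Pold3 and Lig1, which were lower in both genotypes, held no E2F letters in these windows, and no match says only that these letters are absent there.

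Levels below are log2 values minus that of the array's 75th percentile, listed in the order cl4, cl5, cl6 for 2ac and cl280.4, cl324.9, cl324.13 for 2abc, and changes (OHT minus control, log2) come with a standard error (SE). Levels of different genes come from different probes and are not compared. Of the 9 licensing genes, 4 were lower over the 6 lines (Orc1, Cdc6, Gmnn and Orc2), 1 was higher (Orc4) and 4 were not called. Orc1 encodes the largest subunit of ORC and was read by probe A_51_P356931. In the 2ac lines Orc1 went from 1.74, 1.64 and 1.94 without OHT to 1.14, 1.17 and 1.29 with it, and in the 2abc lines from 1.97, 1.90 and 1.93 to 1.13, 0.98 and 0.90. Every OHT sample was below every control sample, whatever the genotype. The change was -0.58 in 2ac (SE 0.08, adjusted p = 0.0141), -0.93 in 2abc (SE 0.08, adjusted p = 0.00486) and -0.75 (SE 0.06, adjusted p = 0.00122) over the 6 lines. It left 67.1% of the control level in 2ac and 52.5% in 2abc. Orc1 lies on chromosome 4, which also carries Kdm4a and Kdm4c, and of the 959 features on that chromosome 236 were called lower (24.6%) and 129 higher over the 6 lines.

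Cdc6 is the ATPase that joins ORC to load the helicase. The Cdc6 levels were 2.07, 2.03 and 2.09 (2ac control), 1.91, 1.82 and 1.88 (2ac OHT), 2.07, 1.98 and 1.89 (2abc control) and 1.84, 1.41 and 1.45 (2abc OHT). The groups did not overlap in either genotype, and the drop was deepest in cl324.9 and cl324.13. Its change over the 6 lines was -0.30 (SE 0.06, adjusted p = 0.0181), and a second Cdc6 probe gave -0.55, lower in each line. Gmnn encodes geminin, the inhibitor of Cdt1. For Gmnn the 2ac controls stood at 3.33, 3.25 and 3.09 and the OHT cultures at 3.02, 2.96 and 2.94, against 3.22, 3.03 and 2.88 and 2.81, 2.73 and 2.75 in 2abc. All OHT cultures were below the controls of their genotype, and the change was -0.26 (SE 0.06, adjusted p = 0.0263), with neither genotype called alone. Orc2 is a core ORC subunit. Orc2 measured 2.54, 2.39 and 2.60 in the 2ac controls and 2.42, 2.14 and 2.59 after OHT, and 2.52, 2.35 and 2.34 in the 2abc controls and 2.26, 2.05 and 1.94 after OHT. Control and OHT samples overlapped in 2ac, where cl6 barely moved (-0.01), and were separate in 2abc. Over the 6 lines the change was -0.22 (SE 0.06, adjusted p = 0.036).

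Orc4, another ORC subunit, was the only 1 of the 43 genes called higher over the 6 lines. In the 2ac lines Orc4 went from -1.19, -1.10 and -0.94 without OHT to -0.86, -0.79 and -0.73 with it, and in the 2abc lines from -0.93, -0.99 and -0.97 to -0.77, -0.82 and -0.91. Each OHT sample was above the controls of its genotype, with a change of 0.20 (SE 0.05, adjusted p = 0.0341). A second Orc4 probe gave -0.10 over the 6 lines, with -0.36 in 2abc, and the mean of the probes gave 0.05 (adjusted p = 0.631), so the probes of this gene disagreed. The uncalled licensing genes ranged from -0.13 (Orc6 and Cdt1) to 0.09 (Orc3). Orc5 stood at 0.23 in 2ac and -0.08 in 2abc.

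The helicase group held the largest share of lower calls. All 12 changes were negative, from -0.47 (Mcm10) to -0.16 (Mcm6 and Gins3), 9 of 12 were called over the 6 lines, and 11 were lower in every line, Mcm2 being the exception. Mcm10 helps to activate the loaded helicase and to tether polymerase alpha, and was read by probe A_55_P2058962. The Mcm10 levels were 5.20, 5.08 and 5.24 (2ac control), 4.75, 4.73 and 4.76 (2ac OHT), 5.26, 5.20 and 5.05 (2abc control) and 4.56, 4.64 and 4.78 (2abc OHT). The 2ac OHT samples were tightly grouped, and in both genotypes OHT and control samples were separate. The change was -0.43 in 2ac (SE 0.10, adjusted p = 0.0485), -0.51 in 2abc (SE 0.10, adjusted p = 0.0254) and -0.47 (SE 0.07, adjusted p = 0.00712) over the lines.

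Of the MCM ring genes, Mcm2 to Mcm7, 4 of 6 were called lower over the 6 lines and in 2abc, and 0 of 6 in 2ac. Mcm5 showed the widest gap between genotypes in the ring. For Mcm5 the 2ac controls stood at 6.42, 6.30 and 6.38 and the OHT cultures at 6.28, 6.23 and 6.24, against 6.57, 6.35 and 6.40 and 6.15, 5.91 and 5.82 in 2abc. Its change was -0.11 in the 2ac lines and -0.48 in the 2abc lines, and -0.30 (SE 0.05, adjusted p = 0.011) over all. Mcm4 measured 6.67, 6.51 and 6.53 in the 2ac controls and 6.52, 6.38 and 6.35 after OHT, and 6.80, 6.68 and 6.65 in the 2abc controls and 6.52, 6.26 and 6.27 after OHT. OHT and control samples of Mcm4 overlapped in 2ac only, where the OHT culture of cl4 was about as high as the controls of cl5 and cl6. Its change was -0.26 (SE 0.05, adjusted p = 0.0156). In the 2ac lines Mcm7 went from 6.94, 6.81 and 6.92 without OHT to 6.79, 6.62 and 6.75 with it, and in the 2abc lines from 7.01, 6.88 and 6.89 to 6.78, 6.58 and 6.55. All Mcm7 OHT samples were below the controls of their genotype, and the change over the lines was -0.23 (SE 0.05, adjusted p = 0.0199). The Mcm2 levels were 5.35, 5.33 and 5.22 (2ac control), 5.20, 5.12 and 5.23 (2ac OHT), 5.41, 5.23 and 5.27 (2abc control) and 5.05, 4.98 and 4.88 (2abc OHT). Mcm2 overlapped in 2ac, where cl6 measured 0.01, and its 6-line change was -0.23 (SE 0.06, adjusted p = 0.0338). Mcm3 and Mcm6 were not called (-0.18, adjusted p = 0.0538, and -0.16, adjusted p = 0.0658), though each was lower in 6 of 6 lines.

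Cdc45 and the GINS subunits complete the active helicase. For Cdc45 the 2ac controls stood at 0.95, 0.97 and 1.06 and the OHT cultures at 0.84, 0.75 and 0.89, against 1.07, 1.20 and 1.23 and 0.85, 0.82 and 0.88 in 2abc. Cdc45 samples were separate in both genotypes, with a change of -0.24 (SE 0.05, adjusted p = 0.0217). Of the 4 GINS genes 3 were called lower over the 6 lines, and all 4 were lower in every line. Gins4 measured 3.46, 3.52 and 3.54 in the 2ac controls and 3.33, 3.27 and 3.36 after OHT, and 3.64, 3.53 and 3.47 in the 2abc controls and 3.27, 2.97 and 2.87 after OHT. Gins4 (probe A_51_P513085) was at its lowest in the OHT cultures of cl324.9 and cl324.13, and its change was -0.35 (SE 0.06, adjusted p = 0.00907). In the 2ac lines Gins2 went from 3.51, 3.51 and 3.77 without OHT to 3.30, 3.24 and 3.38 with it, and in the 2abc lines from 3.84, 3.67 and 3.66 to 3.36, 3.32 and 3.38. The Gins2 OHT cultures of both genotypes ended at similar values, and the change was -0.33 (SE 0.06, adjusted p = 0.0104). Gins1 was lower, at -0.29 (SE 0.08, adjusted p = 0.0444), with its largest single change in cl6 (-0.49). Gins3 measured -0.16, with line values of -0.20 to -0.13.

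Among polymerases, primase and RPA, 4 of 12 genes were lower over the 6 lines (Pold3, Rpa2, Pola2 and Pole2), 0 were higher, and the other 8 lay between -0.28 (Pola1) and 0.05 (Rpa3). Pold3, an accessory subunit of polymerase delta read by probe A_55_P2093689, had line changes between -0.60 and -0.47. The Pold3 levels were 4.40, 4.41 and 4.29 (2ac control), 3.92, 3.90 and 3.82 (2ac OHT), 4.44, 4.30 and 4.28 (2abc control) and 3.91, 3.70 and 3.76 (2abc OHT). No OHT sample reached the lowest control of either genotype. The change was -0.48 in 2ac (SE 0.07, adjusted p = 0.0149), -0.55 in 2abc (SE 0.07, adjusted p = 0.00958) and -0.52 (SE 0.05, adjusted p = 0.00224) over the lines, which left 69.9% of the control level. Rpa2, the middle subunit of the trimer that coats single-stranded DNA, was read by probe A_51_P234308. For Rpa2 the 2ac controls stood at 3.65, 3.58 and 3.69 and the OHT cultures at 3.33, 3.24 and 3.48, against 3.91, 3.55 and 3.59 and 3.14, 3.00 and 2.85 in 2abc. OHT samples were below all controls of their genotype, and the 2abc OHT samples were below those of 2ac. The change was -0.49 (SE 0.06, adjusted p = 0.00358) over the 6 lines, -0.69 in 2abc (SE 0.08, adjusted p = 0.00877) and -0.29 in 2ac (SE 0.08, adjusted p = 0.0731). Rpa2 lies on chromosome 4, as Orc1 does.

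Pola2 is the regulatory subunit of polymerase alpha, which lays down primers together with primase. Pola2 measured 0.56, 0.62 and 0.70 in the 2ac controls and 0.26, 0.20 and 0.49 after OHT, and 0.86, 0.77 and 0.86 in the 2abc controls and 0.43, 0.46 and 0.27 after OHT. OHT and control samples were separate in each genotype, and the change was -0.38 (SE 0.06, adjusted p = 0.00936). Pole2, the second subunit of polymerase epsilon, was lower in 6 of 6 lines, at -0.22 (SE 0.06, adjusted p = 0.0397). Pola1, the catalytic subunit of polymerase alpha, was lower in 5 of 6 lines but measured 0.28 in cl6, and its change of -0.28 was not called (95% interval -0.59 to 0.04, adjusted p = 0.165). Pola1 lies on chromosome X, where the median of 535 features was 0.72 in cl6 and between -0.01 and 0.07 in the other lines. The part of that shift in the Pola1 value was not tested. Without the genes of chromosomes 4 and X, 19 of 39 were called lower and 1 higher.

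In the clamp and lagging-strand group 4 of 8 genes were lower over the 6 lines (Rfc3, Lig1, Pcna and Rfc2) and 0 higher. Lig1, the ligase that seals Okazaki fragments, was read by probe A_51_P285446. In the 2ac lines Lig1 went from 6.51, 6.41 and 6.41 without OHT to 6.13, 6.05 and 6.07 with it, and in the 2abc lines from 6.60, 6.53 and 6.46 to 6.07, 6.09 and 6.02. The OHT samples of both genotypes fell in a narrow range below every control. The change was -0.36 in 2ac (SE 0.07, adjusted p = 0.03), -0.47 in 2abc (SE 0.07, adjusted p = 0.0133) and -0.42 (SE 0.05, adjusted p = 0.00374) over the 6 lines. Rfc3 is a small subunit of the clamp loader. The Rfc3 levels were 1.62, 1.73 and 1.75 (2ac control), 1.44, 1.17 and 1.38 (2ac OHT), 1.77, 1.63 and 1.59 (2abc control) and 1.21, 1.02 and 1.13 (2abc OHT). OHT and control samples were separate in each genotype, with the smallest change in cl4 (-0.18), and the change over the lines was -0.46 (SE 0.07, adjusted p = 0.00669). Pcna, the sliding clamp, also carries replication-linked factors to the fork. For Pcna the 2ac controls stood at 6.68, 6.64 and 6.48 and the OHT cultures at 6.53, 6.43 and 6.26, against 6.54, 6.51 and 6.39 and 6.20, 6.14 and 6.06 in 2abc. Pcna samples overlapped in 2ac and not in 2abc, and the change was -0.27 (SE 0.05, adjusted p = 0.0125). Rfc2 measured 3.99, 3.95 and 4.13 in the 2ac controls and 3.81, 3.79 and 3.95 after OHT, and 4.17, 4.14 and 4.08 in the 2abc controls and 3.88, 3.89 and 3.77 after OHT. Rfc2, another small loader subunit, overlapped in 2ac, where the OHT culture of cl6 and the control of cl5 were both at 3.95, and was separate in 2abc. Its change was -0.23 (SE 0.05, adjusted p = 0.0193). The 4 uncalled genes ran from -0.16 (Rfc1) to 0.12 (Rfc4), and Fen1, the flap nuclease, was uneven, at -0.48 and -0.46 in cl324.13 and cl324.9 and between -0.05 and 0.12 in the other lines.

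Ribonucleotide reductase, which makes deoxynucleotides, did not share the lower calls. Neither of its genes was called in any comparison of OHT with control. In the 2ac lines Rrm2 went from 6.37, 6.12 and 6.30 without OHT to 6.41, 6.37 and 6.66 with it, and in the 2abc lines from 6.41, 6.29 and 6.11 to 6.33, 6.31 and 6.33. For Rrm2, the cycle-regulated small subunit, OHT samples of 2ac lay above the controls only beyond the printed digits. There the control of cl4 and the OHT culture of cl5 both read 6.37. In 2abc the samples overlapped. The Rrm2 change of 0.14 (SE 0.07, adjusted p = 0.212) had a 95% interval of -0.04 to 0.31. Rrm1, the large subunit, measured 0.11 (interval -0.01 to 0.24, adjusted p = 0.161) and was above its control in 6 of 6 lines.

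In some complexes, picked after the values were seen, subunits changed unequally. In ORC, Orc1 measured -0.75 with a 95% interval of -0.89 to -0.61, while Orc3 measured 0.09 with -0.04 to 0.23 and Orc5 0.07 with -0.06 to 0.21. In polymerase delta, the interval of Pold3 was -0.64 to -0.40, that of the catalytic subunit Pold1 was -0.20 to 0.09 and that of Pold2 was -0.17 to 0.12. Rpa2 had an interval of -0.63 to -0.35, against -0.21 to 0.08 for Rpa1 and -0.08 to 0.18 for Rpa3. In the clamp loader, Rfc3 had an interval of -0.63 to -0.29, against -0.05 to 0.29 for Rfc4 and -0.12 to 0.14 for Rfc5. In each of these comparisons the intervals do not meet. The interval of Rfc3 does meet those of Rfc2 (-0.35 to -0.11) and Rfc1 (-0.36 to 0.04). In the MCM ring and GINS the intervals of the lowest and highest members met, at -0.30 (-0.43 to -0.17) and -0.16 (-0.29 to -0.03) in the ring and at -0.35 (-0.49 to -0.21) and -0.16 (-0.28 to -0.04) in GINS. They also met for Pola1 (-0.59 to 0.04) and Pola2 (-0.53 to -0.22), and for Pole (-0.29 to 0.06) and Pole2 (-0.37 to -0.08). Each subunit was read by 1 probe. The probes of Orc4 gave 0.20 and -0.10 and those of Cdc6 -0.30 and -0.55. The part of the probes in the unequal changes was not tested.

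Whether the added loss of Jmjd2b went with a larger change was tested as the 2abc effect minus the 2ac effect. It was called for 0 of the 43 genes and for 0.0% of all features by limma. An unadjusted p under 0.05 was found for 5 of the 43 genes and for 2525 of the 22965 features, shares of similar size. Among the 2554 bright features it was found for 171. The point estimate was lower in 2abc for 37 of 43 genes (86.0%), as it was for 56.6% of all features. It was also lower in 2abc for 1850 of the 2554 bright features, so much of this lean was shared by bright probes. For 17 genes each 2abc line had a lower change than each 2ac line, a pattern found in 10.9% of all features. In the 5 genes with an unadjusted p under 0.05 the differences were -0.40 for Rpa2 (95% interval -0.68 to -0.11, adjusted p = 0.378), -0.37 for Mcm5 (-0.63 to -0.11, adjusted p = 0.378), -0.35 for Orc1 (-0.64 to -0.07, adjusted p = 0.4), -0.33 for Gins4 (-0.61 to -0.05, adjusted p = 0.418) and -0.31 for Orc5 (-0.59 to -0.04, adjusted p = 0.422). At the other end, Pold3 differed by -0.07 (-0.31 to 0.18) and Mcm10 by -0.08 (-0.43 to 0.27), intervals that leave room for a difference either way. All 2abc arrays lay on 1 slide, with the arrays of cl6, while cl4 and cl5 were on others. On that slide cl6 measured -0.65 for Orc1, -0.21 for Rpa2, -0.13 for Mcm5, -0.17 for Gins4 and 0.27 for Orc5, each above the values of the 3 lines of 2abc. These 5 genes were picked by a difference in which cl6 itself takes part. Its place above the 2abc lines therefore cannot separate slide from genotype. Over the 43 genes the 2ac and 2abc changes correlated at r = 0.82, a description across genes that share arrays and are not independent.

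**Figure D4:**
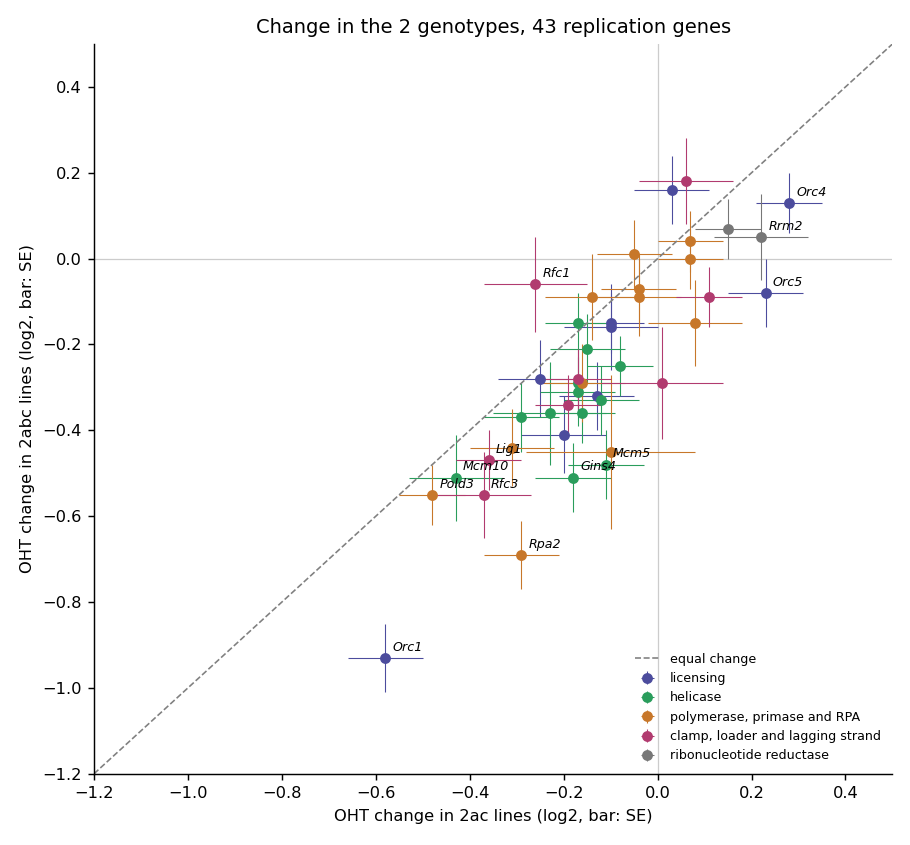
Change of the 43 replication genes in the 2ac lines (horizontal axis) and in the 2abc lines (vertical axis), both OHT minus control in log2 units with SE bars (3 lines each), coloured by role. Of the 43 points, 37 lie below the dashed line of equal change, with Orc1 at -0.58 and -0.93 farthest from the rest.

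Before deletion no difference between the genotypes was called in these genes. In the control cultures 0 of the 43 genes were called between 2abc and 2ac by limma (1 at an unadjusted p under 0.05), as were 0.00871% of all features, and the median difference was 0.04. Control values of the genotypes did not overlap for 6 genes (14.0%), against 33.1% of all features. On the slide they shared, the mean of the 2abc controls minus cl6 had a median of 0.00 over the 43 genes and -0.05 over all features. Scaling to the array median moved the untreated median of all features to 0.26 and that of the 43 genes to 0.34, so relative to all features the shift stayed under 0.1.

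A wider list of 71 tested replication genes gave 22 lower and 6 higher over the 6 lines, 31.0% lower, with a median of -0.11. All features gave 14.7% lower and 14.0% higher. Of 12 tested origin-firing genes 7 were lower and 0 higher, among them Ticrr at -0.84 (SE 0.10, adjusted p = 0.00385), the partner of Topbp1 that brings Cdc45 to the helicase, and Cdk2, the S-phase kinase, at -0.61 (SE 0.06, adjusted p = 0.00215). Fork protection and accessory genes gave 8 of 20 lower and 3 higher, with Chtf18 of the alternative clamp loader at -0.46 and the ribonuclease H2 genes Rnaseh2a and Rnaseh2b at -0.35 and -0.44. In the chromatin assembly list 3 of 7 were lower, led by Uhrf1, which recruits the maintenance DNA methyltransferase, at -0.60 (SE 0.05, adjusted p = 0.00161). Thymidine kinase Tk1, at -0.62, was the only lower call of 8 nucleotide supply genes (12.5%), with 0 higher. The phosphatase gene Cdc25a, at -0.40, was the only lower call of 11 degradation and checkpoint genes (9.09%), with 0 higher. Both shares lay under the 14.7% of all features. In the E2F and Rb list 2 of 13 were lower (15.4%, near the share of all features) and 3 higher. The smallest adjusted p of that list belonged to the activator E2f2, at -0.34, and the repressor E2f6, at 0.42. Polymerase accessory subunits, chosen after their values were seen, also went apart: Pole4 was lower at -0.49 (adjusted p = 0.00946) and Pold4 was higher at 0.41 (adjusted p = 0.014).

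Markers of cycle state and of other cells were counted beside these genes, where all features gave 14.7% lower and 14.0% higher over the 6 lines. Of 7 genes linked to cell cycle arrest 6 were higher and 0 lower over the 6 lines, with a median of 0.73, and their mean level was 1.82 to 2.02 in the 2ac controls and 2.45 to 2.88 after OHT, and 2.20 to 2.29 in the 2abc controls and 2.78 to 3.09 after OHT. The ranges did not overlap in either genotype. Of 14 G2 and mitosis genes 3 were lower (21.4%) and 0 higher. Their mean level was 3.78 to 3.99 in the 2ac controls and 3.59 to 3.73 after OHT, and 3.90 to 3.97 and 3.71 to 3.94 in 2abc, where the ranges overlapped. ESC markers gave 2 of 10 lower (Zfp42 and Sall4) and 0 higher, with mean levels of 4.65 to 4.68 and 4.62 to 4.78 in 2ac, and 4.66 to 4.77 and 4.44 to 4.50 in 2abc. For primitive endoderm 6 of 7 markers were tested, 3 were lower and 1 higher, and mean levels were -1.43 to -1.17 in the 2ac controls and -1.96 to -1.70 after OHT. In 2abc they were -1.28 to -1.06 in the controls and -1.94 to -1.27 after OHT. Only 5 of 10 fibroblast markers and 4 of 8 blood markers passed the background filter, with Postn, Dcn and Hbb-b1 above background on 0 arrays. The fibroblast list gave 1 higher and 0 lower, with mean levels of -1.31 to -1.07 in the 2ac controls, -1.08 to -0.48 after OHT, and -1.09 to -0.99 and -1.14 to -0.96 in 2abc. The blood list gave 1 lower and 0 higher, at -0.39 to 0.43 and -0.33 to -0.01 in 2ac and -0.44 to -0.14 and -0.54 to -0.34 in 2abc. Control and OHT ranges of the fibroblast and blood lists overlapped in both genotypes. Within lines, though, the fibroblast mean rose in every 2ac line, from -1.23 to -0.90 (cl4), -1.31 to -1.08 (cl5) and -1.07 to -0.48 (cl6). All 5 tested fibroblast markers had positive 2ac changes, with 0 called there. In 2abc the fibroblast mean rose in cl280.4 and fell in cl324.9 and cl324.13. The blood mean rose in cl4 and cl280.4 and fell in the other lines. The part of these cell states in the lower replication genes was not tested. In bulk RNA, fewer cells in S phase and less RNA per cell cannot be told apart.

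The lines resembled each other in which genes moved. Over the 43 genes, changes of pairs of lines correlated at r between 0.49 (cl6 with cl280.4) and 0.87 (cl324.9 with cl324.13), against 0.43 and 0.75 for the same pairs over all features. These are descriptions over genes measured on shared arrays. The arrays of the OHT sample of cl4, set against the same control, gave median changes of -0.19 and -0.10 for the 43 genes, both negative. Only the array with -0.10 shared the slide of that control, so the averaged cl4 sample mixes slides.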

How the data were processed

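Cy3-labelled total RNA of 12 samples was read on 13 arrays that lay on 3 slides. Per the file headers, the deposited intensity of each spot is the output of Feature Extraction 11.0.1.1, with background subtracted and no scaling between arrays. The 0 or 1 flags (an other type of value) for spots well above background, saturated or outlying come from the same software, per the file headers. The authors' deposited table of log2 values, for which limma is named in the submitters' processing notes, with the other steps not given in the sources used here, served as an alternative, and 0 of its columns fell outside the 13 arrays.

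From log2 of the processed intensity the 75th percentile of each array was subtracted, control and outlier spots were left out, and spots of a probe were averaged. Probes were named by accession through a RefSeq table of GRCm38.p6 (27656 of 55681 probes with 1 symbol). Probes stayed in if all arrays of 1 or more groups read them well above background, and the brightest probe stood for a gene, 5 of the 43 genes having several. No coordinates of the array design are printed. limma 3.58.1 in R 4.3.3 (lmFit, eBayes) was fitted to the 12 samples together, each ESC line being a block, since the same line was grown both ways, and 4 residual degrees of freedom. The 2 samples of a line deviated together at r of 0.16 to 0.50 in 2ac and of -0.02 to 0.03 in 2abc. The untreated comparison used the 6 controls alone. P-values were adjusted by Benjamini-Hochberg over all 22965 features, and the fit was tested on simulated data.

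The genes, the lists and the role groups were chosen with earlier results of these data known. Genes called in a comparison were named with values in every sample, at most 20, with the largest change of a role group that had none, and at most 10 genes of the wider list. The promoter search, the complexes, the chromosome counts and the comparison by brightness were added after the values were seen. Alternatives were median and quantile scaling, normexp (offset 50, on median spot signals, the mean signal not being among the columns), no block, the slide as block, each genotype alone, other filters, the authors' table, 1 array of cl4, the mean of probes and leaving out each line.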

Additional observations from a re-analysis of the deposited data

Results flagged for a closer look

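Rfc5, a small subunit of the clamp loader, was higher after OHT in every 2ac line (0.10, 0.04 and 0.21) and lower in every 2abc line (-0.10, -0.11 and -0.06), and this opposite movement is what drew attention to it. Some of these values are small, and the share of all features with such a pattern was not counted. The 2abc effect minus the 2ac effect was -0.21, with a 95% interval of -0.46 to 0.05 and a limma adjusted p of 0.524, so the difference was not called, and neither genotype was called alone.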

How the results depend on the processing

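Counts called lower are given here as 2ac, 2abc and 6 lines, from 4, 18 and 21. They were 2, 5 and 12 with median scaling, 1, 6 and 11 with no filter on dim probes, and 9, 18 and 21 with the authors' deposited table. Lower calls over all features were 5.54, 6.78 and 11.8% with median scaling and 1.26, 2.0 and 6.03% with no filter. They were 12.2, 13.9 and 19.4% in the authors' table, against 6.52, 9.03 and 14.7% in the main fit. With the slide as block 7 were lower and 1 higher in 2ac, and with each genotype alone 0 were lower in 2ac and 1 in 2abc. All features gave 8.07% lower in 2ac with the slide as block, and 4.02% and 1.73% with each genotype alone. Without the replicate block, which pairs the cultures of a line, the counts were 5, 16 and 20, and it moved no count by over 1.5 times. Lower shares of all features without the block were 6.99, 9.14 and 14.3%. Calls higher over the 6 lines were 0 with median scaling, with no filter and with the mean of probes, and 3 in the authors' table, which also had 2 in 2ac and 2 in 2abc. The filter on every array gave 1 higher in 2ac. Leaving out each line gave 0 to 4 lower in 2ac, 1 to 18 in 2abc and 9 to 20 over the 6 lines, with 0 to 1 higher over the 6 lines. Lower calls over all features then ranged from 0.287 to 8.0%, from 0.392 to 10.7% and from 7.93 to 15.1%. Medians of the 43 genes were -0.16 in 2ac with median scaling, -0.12 with only the second array of cl4, and -0.12, -0.21 and -0.15 in the authors' table, and -0.20 in 2abc with quantile scaling. Leaving out lines gave -0.17 to -0.13 in 2ac, -0.28 to -0.25 in 2abc and -0.23 to -0.19 over the lines. No named gene reversed its sign where it was called, and the cause of these shifts was not tested, beyond the fewer samples or the other number of features in a fit.

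Calls over all features were 1607 in 2ac and 874 in 2abc with each genotype alone, and 899, 1538 and 4330 with no filter. Leaving out lines gave 170 to 3437 in 2ac, 219 to 4727 in 2abc and 3566 to 6712 over the lines. In the untreated comparison they were 0 with median scaling, quantile scaling or no filter, 4 with normexp, 201 with the filter on every array, 289 in the authors' table and 0 to 142 without a line. The 3 lines per genotype and the shared slides limit the precision of all these values.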
